A study of Rattus norvegicus with 6 samples.

Results

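Chemokines are small secreted proteins that draw leukocytes along a gradient, and they are named by the spacing of their first cysteines as CC, CXC, CX3C or XC ligands. Their receptors couple to inhibitory G proteins, whereas the atypical receptors bind ligand without this coupling and remove or buffer it. In the dorsal root ganglion (DRG), which holds the cell bodies of sensory neurons, chemokines are made by neurons, glia and resident macrophages, and several are known for acting on nociceptors after nerve injury. Genes were taken whose symbols begin with Ccl, Ccr, Cxcl, Cxcr, Cx3c, Xcl, Xcr or Ackr, with a number where the name has one, and whose counts summed to at least 30 over the 6 libraries. Of 54 such symbols, 39 were kept, out of 43350 gene rows in the table. The 39 comprised 13 CC ligands, 10 CXC ligands, 2 CX3C or XC ligands, 4 CC receptors, 5 CXC receptors, 2 CX3C or XC receptors and 3 atypical receptors.

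The CCI group had chronic constriction injury (CCI), in which ligatures were tied loosely around the left sciatic nerve, and the sham group had the nerve exposed and left untied, an operation that the sample labels list as no treatment. All rats were male Sprague-Dawley, and no age is given in the labels. Ganglia of lumbar levels 4 to 6 on the operated side were taken at day 11 after saline perfusion from 3 CCI and 3 sham rats that had shown the behaviour looked for, with 1 rat per library according to the methods. The library protocol in the labels speaks of a pooled sample instead. On the reading of the methods, p-values measure the spread between rats. RNA was sequenced after ribosomal depletion, from whole ganglia. In such bulk tissue, more cells of a type and more RNA per cell cannot be told apart.

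Counts per library summed to 75423546 to 87615743, and 3 counts were worth 0.0341 to 0.0394 CPM, the unit of counts after scaling every library to the same size. The 9 sensory neuron markers, such as Rbfox3 and Calca, summed to 8387 to 9604 CPM in every library, and Atf3, a transcription factor induced in injured neurons, had 9456, 5431 and 4094 counts in CCI 1, 2 and 3 against 555, 634 and 593 in sham 1, 2 and 3. Sham 1 stood apart in skeletal muscle markers, at 151 CPM against 22.9 in sham 3, 5.97 in sham 2 and 5.13 to 9.53 in the CCI libraries. Of these markers 4 of 4 were called lower in CCI, beside 1.37% of all rows, although the groups overlapped in Acta1, Ckm and Mylpf. Sham 1 was also highest in neutrophil markers (24.4 CPM against at most 14.9 elsewhere). Without sham 1, the 8 chemokine and receptor genes called below were called in the same direction.

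Of the 39 genes, 7 were higher and 1 was lower in the CCI group at the limits used in the study, an unadjusted p below 0.05 together with a log2 fold change no smaller than 0.58 either way. The genes called higher were the ligands Ccl2, Ccl6, Cxcl1, Cxcl9, Cxcl16 and Xcl1 and the receptor Cx3cr1, and the gene called lower was the ligand Cx3cl1. The 7 made up 17.9% of the 39, or 6 of 38 (15.8%) without Xcl1, which passed the count floor through the CCI group alone, while 2.81% of all 30764 rows tested were called higher and 1.37% were called lower. Every CCI library lay above every sham library for 8 genes, the 7 called and Ccr6, beside 8.55% of all rows. For Ccr6 this rests on the scaling, since CCI 3 and sham 2 had 4 counts each, and all but 4 of its 36 counts were in the CCI group. Xcl1 and Ccr6 are thus among the 8 although they passed the count floor only with their CCI counts. Every CCI library lay below every sham library for Cx3cl1, beside 8.15% of all rows. Fold changes and adjusted p-values below are edgeR's, adjusted by Benjamini-Hochberg over all rows tested. None of the 39 passed an adjusted p of 0.05 in its quasi-likelihood test, which 0.078% of all rows did, although 8 had an unadjusted p under 0.05. With DESeq2, 6 of the 39 passed the adjusted threshold, namely Ccl2, Ccl6, Cx3cr1, Cxcl9, Cxcl16 and Xcl1, beside 2.67% of the 29980 rows given an adjusted p. DESeq2 gave none for Ccl22 and Ccr6. With edgeR's exact test, 5 passed (0.92% of all rows), the same genes apart from Ccl6. Both counts include Xcl1, which passed the count floor through the CCI group alone. The count of lower genes was 0 without CCI 1 and 2 without CCI 3. The fold change was positive for 23 genes and negative for 16, with a median log2 fold change of 0.28 against 0.01 over all rows. The median was -0.01 in the 20 genes with a mean FPKM of at least 0.5 and 0.52 in the 19 below that level. The 19 include Xcl1, Ccl17, Ccr6 and Ccr9, which passed the count floor only with their CCI counts. No median of all rows was taken below that level, so the 0.52 is not read as a shift of the low genes.

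**Figure D1:**
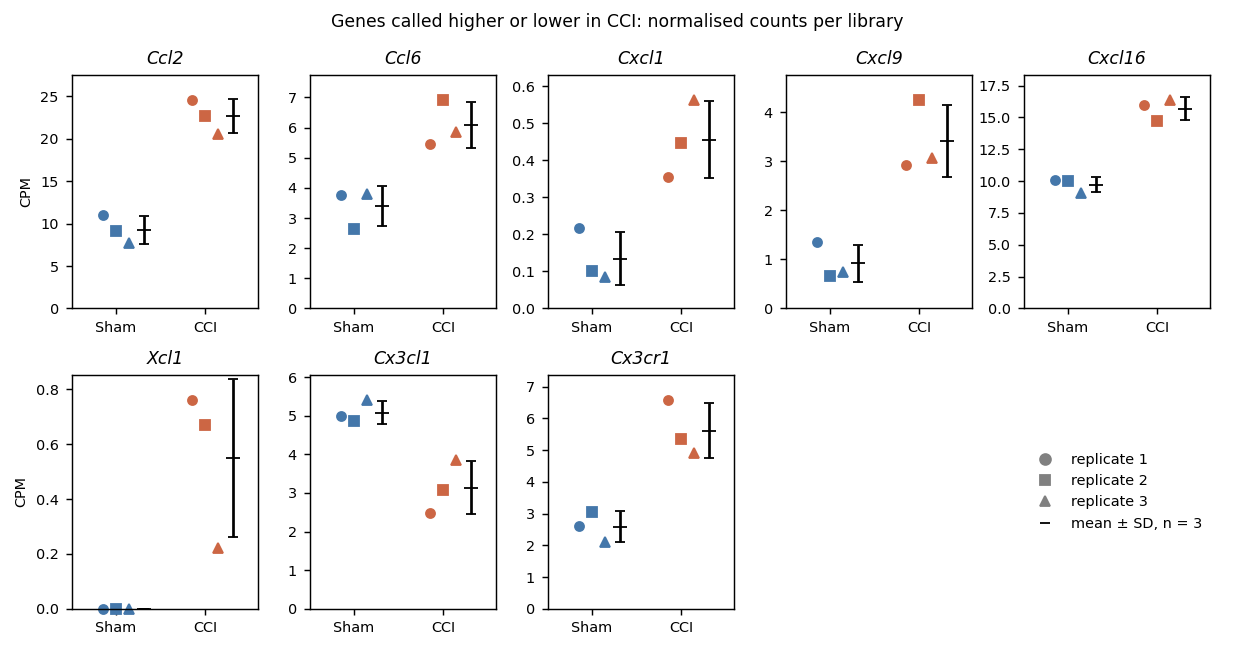
Normalised counts (CPM, linear axes from 0) of the 8 genes called higher or lower, for the 3 sham and the 3 CCI libraries, with the mean and SD of each group (n = 3). In 7 panels every CCI point lies above every sham point, and in the Cx3cl1 panel every CCI point lies below.

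Ccl2, the monocyte attractant also called MCP-1, was the most abundant of the genes per length, with a mean FPKM of 17.4 (fragments scaled to transcript length and to library size). Its counts were 2000, 1832 and 1566 in CCI 1, 2 and 3 and 970, 719 and 634 in sham 1, 2 and 3. The lowest CCI library stood well above the highest sham library. Normalised counts were 22.6 ± 2.02 CPM (SD, n = 3) after CCI and 9.25 ± 1.69 CPM after sham surgery, a log2 fold change of 1.29 ± 0.15 (SE; edgeR, adjusted p = 0.0775). Its main receptor, Ccr2, was not analysed here.

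Ccl6, a CC ligand of rodents made mainly by myeloid cells, had 445, 559 and 447 counts in the CCI libraries and 331, 210 and 315 in the sham libraries. The groups did not overlap, with sham 2 lowest and CCI 2 highest. Its log2 fold change was 0.84 ± 0.19 (SE; edgeR, adjusted p = 0.234).

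None of the other 11 CC ligands was called. Ccl21, a ligand that guides dendritic cells and T cells through Ccr7, had 58, 506 and 132 counts in the CCI libraries against 214, 193 and 192 in the sham libraries. Its CCI libraries lay on either side of the sham libraries, so that the log2 fold change of 0.28 carried a 95% interval from -1.43 to 1.98, and it was -0.97 without CCI 2. Ccl27, best known from skin, had 136, 103 and 148 counts against 159, 159 and 153, a log2 fold change of -0.21 (95% interval -0.73 to 0.31). Ccl7, a monocyte attractant whose gene lies beside Ccl2, had 84, 123 and 61 counts against 81, 53 and 14, and its log2 fold change of 0.93 had an interval from -0.52 to 2.38. Ccl5, an attractant of T cells and monocytes, was sparse, at 38, 19 and 10 counts against 23, 17 and 12. The groups overlapped in all 4 of these genes. Ccl17, a ligand of Ccr4, had 20, 22 and 0 counts in the CCI libraries and 0, 2 and 0 in the sham libraries, so it passed the count floor almost wholly through CCI 1 and CCI 2. The ratio of its summed counts, 42 against 2, was 22 after scaling, with an exact interval of 5.74 to 188 that covers counting error alone, and it was not called (edgeR, adjusted p = 0.512). The other 6, Ccl4, Ccl11, Ccl12, Ccl22, Ccl24 and Ccl28, had mean FPKM values up to 0.373, and the groups overlapped in each.

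Cxcl16, a membrane-bound ligand that is also a scavenger receptor for oxidised lipids, had the next highest mean FPKM, 6.35. It had 1301, 1187 and 1253 counts in the CCI libraries and 892, 794 and 751 in the sham libraries. The groups were narrow and far apart, at 15.7 ± 0.897 CPM (SD, n = 3) and 9.74 ± 0.584 CPM, which gave the smallest SE of the called genes, at 0.69 ± 0.09 (SE) on the log2 fold change scale (edgeR, adjusted p = 0.0917). The end of its row shares 119 bases with Zmynd15 on the other strand, which had 126, 160 and 118 counts in the CCI libraries and 56, 61 and 116 in the sham libraries and was also called higher. The library kit marked strand, whereas the strand setting of the counting is not stated. Its receptor Cxcr6 had 67, 62 and 80 counts against 91, 48 and 53, and its log2 fold change of 0.21 had an interval from -0.55 to 0.98.

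Cxcl9, an interferon-gamma-induced ligand of Cxcr3, had 238, 344 and 233 counts in the CCI libraries and 120, 53 and 61 in the sham libraries. Every CCI library had more than the highest sham library, sham 1. The log2 fold change was 1.89 ± 0.34 (SE; edgeR, adjusted p = 0.147). Cxcl10 and Cxcl11, the other ligands of Cxcr3, lie beside Cxcl9 within 39.7 kb of chromosome 14 (17195014 to 17234712 in the coordinates of the authors' table). Cxcl10 had 86, 314 and 214 counts in the CCI libraries and 200, 203 and 333 in the sham libraries, with an interval of -1.34 to 0.96 around a log2 fold change of -0.19. Cxcl11 had 3, 40 and 0 counts against 19, 8 and 7. In these neighbours the groups overlapped, and the highest library was a sham library for Cxcl10 and a CCI library for Cxcl11. Cxcr3 itself was near the floor, at 0, 4 and 8 counts against 4, 15 and 10.

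Cxcl1, a neutrophil attractant, was low in both groups, with 29, 36 and 43 counts in the CCI libraries and 19, 8 and 7 in the sham libraries. The groups were separate, with sham 1 nearest to the CCI libraries. Its log2 fold change was 1.75 ± 0.54 (SE; edgeR, adjusted p = 0.354). The call was lost without CCI 3, where the difference was 1.57 and the unadjusted p passed 0.05. With limma on log2(FPKM + 1) the call was also lost, as the difference of 0.36 missed the size limit (limma, unadjusted p = 0.00497). Its receptor Cxcr2 had 29, 16 and 8 counts against 21, 12 and 0. Of the neutrophil markers, 0 of 7 were called, and their sum was 10.9 to 14.9 CPM in the CCI libraries and 8.27 to 24.4 CPM in the sham libraries.

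The 250 bases before the start of these CXC ligand genes are shown. Cxcl9, Cxcl10 and Cxcl11 were taken because they lie side by side and only Cxcl9 was called, and Cxcl1 because it was called at a low level. The sequences are from RefSeq on GRCr8, which is a different build from that of the table, and run 5′ to 3′ on the strand of the gene. Capitals mark the NF-kB motif, the AP-1 motif TGANTCA, the interferon response core GAAANNGAA and the STAT motif TTCNNNGAA, searched on both strands.
Cxcl9: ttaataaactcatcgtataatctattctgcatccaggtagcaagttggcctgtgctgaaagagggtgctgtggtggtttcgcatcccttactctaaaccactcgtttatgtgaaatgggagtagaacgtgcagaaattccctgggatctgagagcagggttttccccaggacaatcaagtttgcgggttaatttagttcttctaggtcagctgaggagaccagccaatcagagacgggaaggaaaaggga
Cxcl10: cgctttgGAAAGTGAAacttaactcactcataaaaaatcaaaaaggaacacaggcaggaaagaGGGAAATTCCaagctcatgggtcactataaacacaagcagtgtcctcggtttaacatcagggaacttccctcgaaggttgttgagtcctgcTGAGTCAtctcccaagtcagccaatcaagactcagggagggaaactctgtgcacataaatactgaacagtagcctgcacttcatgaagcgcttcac
Cxcl11: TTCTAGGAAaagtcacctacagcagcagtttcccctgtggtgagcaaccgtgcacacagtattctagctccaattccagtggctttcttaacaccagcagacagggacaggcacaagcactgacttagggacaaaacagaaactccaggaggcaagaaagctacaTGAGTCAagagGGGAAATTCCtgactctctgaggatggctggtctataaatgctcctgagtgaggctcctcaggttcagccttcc
Cxcl1: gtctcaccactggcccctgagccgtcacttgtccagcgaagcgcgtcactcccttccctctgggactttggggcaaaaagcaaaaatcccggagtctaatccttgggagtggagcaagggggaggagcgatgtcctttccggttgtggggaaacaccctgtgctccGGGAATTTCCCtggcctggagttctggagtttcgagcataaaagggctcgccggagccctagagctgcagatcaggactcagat

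These windows are chr14:16006916-16007165 for Cxcl9, chr14:15988816-15989065 for Cxcl10 and chr14:15973478-15973727 for Cxcl11, all on the plus strand, and chr14:17479322-17479571 on the minus strand for Cxcl1. The NF-kB motif was in the windows of Cxcl1, Cxcl10, Cxcl11 and Cxcl6 among the 32 of the 39 genes with a window, and in 3.54% of 33469 windows of all genes. In Cxcl1 it matched at overlapping positions, 84 to 75 and 83 to 74 bases before the start. TGANTCA was in 6 of the 32 (6.34% of all windows), GAAANNGAA in Cxcl10 alone (8.12%) and TTCNNNGAA in 4 (7.67%). The Cxcl9 window held none of these, which says only that these letters are not in this window. A match is a string of letters and was not tested as a site.

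The remaining CXC ligands were not called. Cxcl12, which retains stem cells and lymphocytes through Cxcr4, had 1255, 2062 and 1571 counts in the CCI libraries and 1950, 1626 and 1690 in the sham libraries. CCI 1 was lowest and CCI 2 highest, and the log2 fold change of -0.03 had an interval from -0.46 to 0.39. Cxcr4 had 640, 837 and 833 counts against 968, 718 and 768, a log2 fold change of -0.01 (95% interval -0.39 to 0.37). Ackr3, the atypical receptor that takes up Cxcl12, had 469, 725 and 878 counts against 705, 810 and 763, a log2 fold change of -0.06 (95% interval -0.67 to 0.55). Per length these 3 held ranks 3 to 5 of the 39, with mean FPKM values of 5.08 for Cxcr4, 4.21 for Ackr3 and 3.49 for Cxcl12. CCI 1 was the lowest of the 6 libraries for each of them. The 4 fibroblast markers also had their lowest sum in CCI 1, at 1055 CPM against 1566 to 1733 CPM elsewhere. The same held for Schwann cell markers (6187 CPM against 6834 to 8638 CPM) and endothelium markers (33.3 CPM against 40.1 to 64.8 CPM). The part of these cells in the values of the 3 genes was not tested. Cxcl13, the B cell attractant, had 224, 269 and 265 counts against 282, 170 and 363, and its receptor Cxcr5 had 51, 52 and 36 against 18, 35 and 46. Cxcl17, a mucosal ligand, was counted in a row joined with Lipe, a lipase gene, so its 2479, 2153 and 2406 counts against 2716, 2243 and 2767 cannot be given to either gene. Cxcl6 and Cxcl14 had mean FPKM values of 0.384 and 1.16, and the groups overlapped in each.

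**Figure D2:**
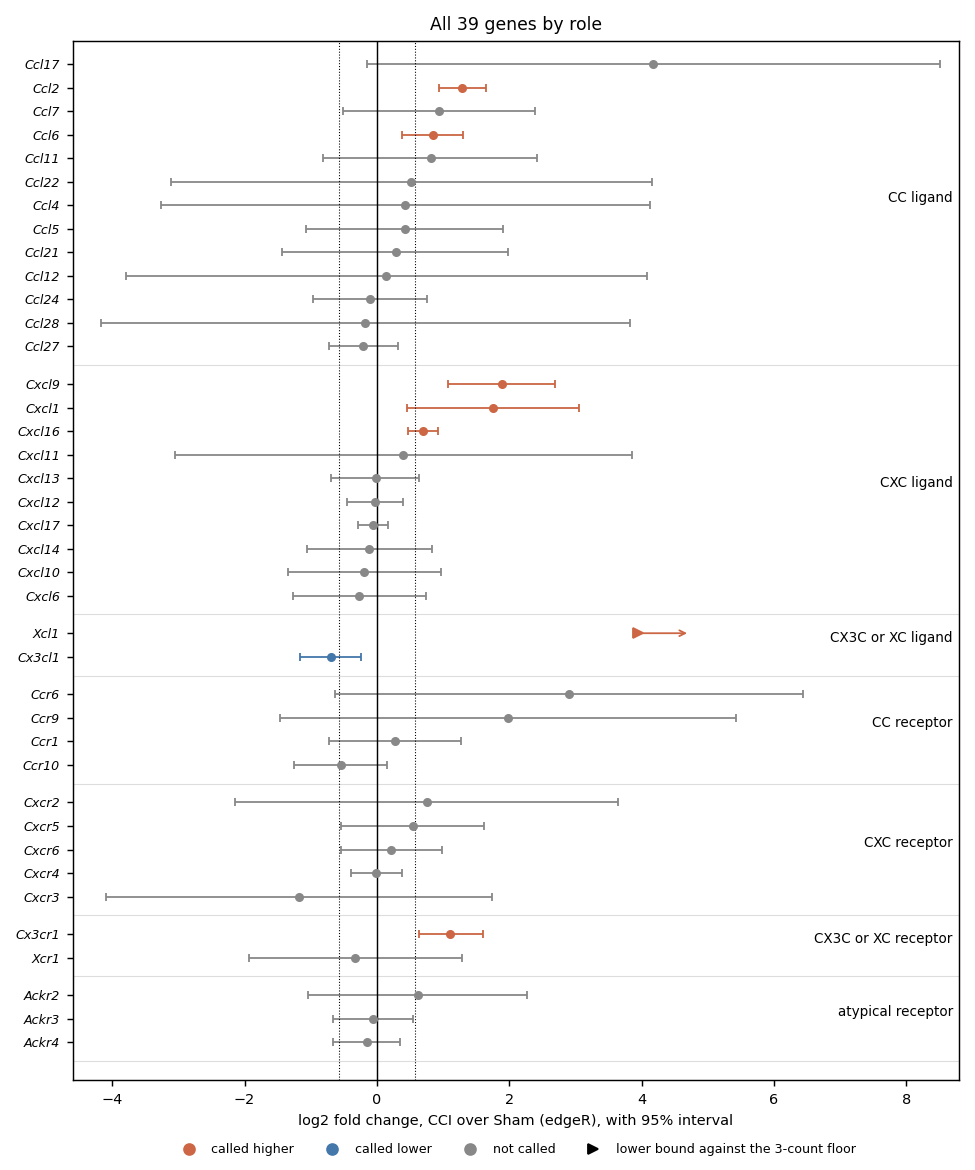
Log2 fold change of CCI over sham from edgeR (horizontal axis) for all 39 genes grouped by role, with 95% intervals, colours for the call and dotted lines at the limit of 0.58. The triangle with an arrow for Xcl1 is a lower bound at 3.94, and the intervals of Cxcl12, Cxcr4 and Ackr3 span 0.

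Cx3cl1, called fractalkine, is a membrane-bound ligand that neurons express and that proteases release, and Cx3cr1 is its receptor on macrophages and microglia. The ligand was the gene called lower, with 202, 248 and 293 counts in the CCI libraries and 438, 385 and 448 in the sham libraries. Every CCI library was below every sham library, at 3.13 ± 0.683 CPM (SD, n = 3) against 5.08 ± 0.29 CPM. The log2 fold change was -0.70 ± 0.19 (SE; edgeR, adjusted p = 0.299). The size limit was missed without CCI 1 (-0.56) and with limma on log2(FPKM + 1) (-0.37). The sum of the sensory neuron markers was 8484 to 8633 CPM in the CCI libraries and 8387 to 9604 CPM in the sham libraries, with 0 of 9 called. Its members did not all go the same way, as Nefh, a neurofilament of large neurons, had a log2 fold change of -0.54 ± 0.08 (SE; edgeR, adjusted p = 0.117) with no overlap and Tubb3 had 0.31 ± 0.08 (adjusted p = 0.285).

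The receptor moved the other way. Cx3cr1 had 535, 431 and 373 counts in the CCI libraries and 231, 242 and 174 in the sham libraries. The groups did not overlap, at 5.6 ± 0.87 CPM (SD, n = 3) and 2.59 ± 0.477 CPM. The log2 fold change was 1.11 ± 0.20 (SE; edgeR, adjusted p = 0.151). A further assembled row with this symbol, without a strand and inside the main row (chromosome 8, 128754004 to 128754359), had 19, 20 and 27 counts against 56, 32 and 14, and was not called (log2 fold change -0.53; edgeR, adjusted p = 0.836).

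Xcl1, called lymphotactin, is made mainly by activated T cells and natural killer cells and acts on dendritic cells through Xcr1. It had 62, 54 and 17 counts in CCI 1, 2 and 3 and 0 counts in all 3 sham libraries, so it passed the count floor through the CCI group alone. Taking 3 counts per sham library as the floor, its mean of 0.552 CPM after CCI was at least 15.3-fold the sham level. This bound takes the CCI mean as exact, and CCI 3 was lower, at 0.223 CPM. The adjusted p of 0.153 is from edgeR's test of the group difference and does not refer to the bound. Xcr1 had 6, 20 and 28 counts against 35, 19 and 19. The T cell markers Cd3d, Cd3e and Cd8b held 0 to 8 counts per library, Cd8a had 1, 4 and 19 counts in the CCI libraries and 0 in the sham libraries, and Cd3g had 0, 15 and 0 against 15, 12 and 8. The sum of the 5 T cell markers tested was 14.8 to 20.1 CPM in the CCI libraries and 11.4 to 11.9 CPM in the sham libraries, with 1 called, Cd4, which rat macrophages also express and which made up most of the sum. The other 4 summed to 1.29 to 1.83 CPM in the CCI libraries and 0.857 to 1.44 CPM in the sham libraries. Of the natural killer cell markers, Klrd1, Ncr1 and Nkg7 held 0 to 11 counts per library, and Gzmb, a granule protease, had 15, 0 and 38 counts against 0, 0 and 0 and was called higher (edgeR, adjusted p = 0.458), although CCI 2 was at 0 like the sham libraries. The part of these cells in the Xcl1 counts was not tested.

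The rows around Xcl1 were looked at after its values had been seen. Upstream of it on chromosome 13, beginning 1403 bases from its row (83199264 to 83202864, minus strand), 11 assembled rows without a gene symbol spanned 109.5 kb (83204267 to 83313733), 7 of them on the same strand and 4 without a strand. All 11 were called higher in the CCI group with no overlap of the groups, beside 2.81% and 8.55% of all rows. The rows are not separate stretches, as MSTRG.9052 (83240492 to 83313733) spans MSTRG.9053 to MSTRG.9060. MSTRG.9057 had 55, 91 and 37 counts against 0 in each sham library, so it passed the count floor through the CCI group alone. MSTRG.9050 (12, 4 and 12 counts in sham 1, 2 and 3), MSTRG.9055 (7, 8 and 0) and MSTRG.9060 (4, 0 and 2) also passed it only with their CCI counts. Of the 11, 2 passed the adjusted threshold (MSTRG.9058, adjusted p = 0.0419, and MSTRG.9056, adjusted p = 0.0464, edgeR). The counts of all 11, overlapping rows included, summed to 16708, 5917 and 5084 in CCI 1, 2 and 3 and to 290, 254 and 333 in sham 1, 2 and 3. CCI 1 was highest in 10 of the 11 rows. The counts of Xcl1 equalled 0.371%, 0.913% and 0.334% of those sums in CCI 1, 2 and 3. A further row without a symbol, MSTRG.9045, lay 174.1 kb upstream, between the 11 rows and Tbx19. It had 140, 68 and 114 counts against 0, 7 and 0, so it too passed the count floor only with its CCI counts. This row was also called higher (log2 fold change 5.49, edgeR, adjusted p = 0.195). The nearest named genes expressed on either side, Dpt (388, 380 and 604 counts against 597, 314 and 538) and Tbx19 (130, 113 and 128 against 130, 85 and 118), were not called. Whether the Xcl1 reads and those of the upstream rows come from the same transcript was not tested. The 250 bases before the RefSeq start of Xcl1 (GRCr8, chr13:79785441-79785690, minus strand) are shown because the assembled rows lie next to them, and none of the motifs above was in this window.
Xcl1: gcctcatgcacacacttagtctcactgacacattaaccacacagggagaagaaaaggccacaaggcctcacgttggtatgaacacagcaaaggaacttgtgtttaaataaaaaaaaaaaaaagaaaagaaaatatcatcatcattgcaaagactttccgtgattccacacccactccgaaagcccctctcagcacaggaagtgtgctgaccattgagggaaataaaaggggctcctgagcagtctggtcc

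**Figure D3:**
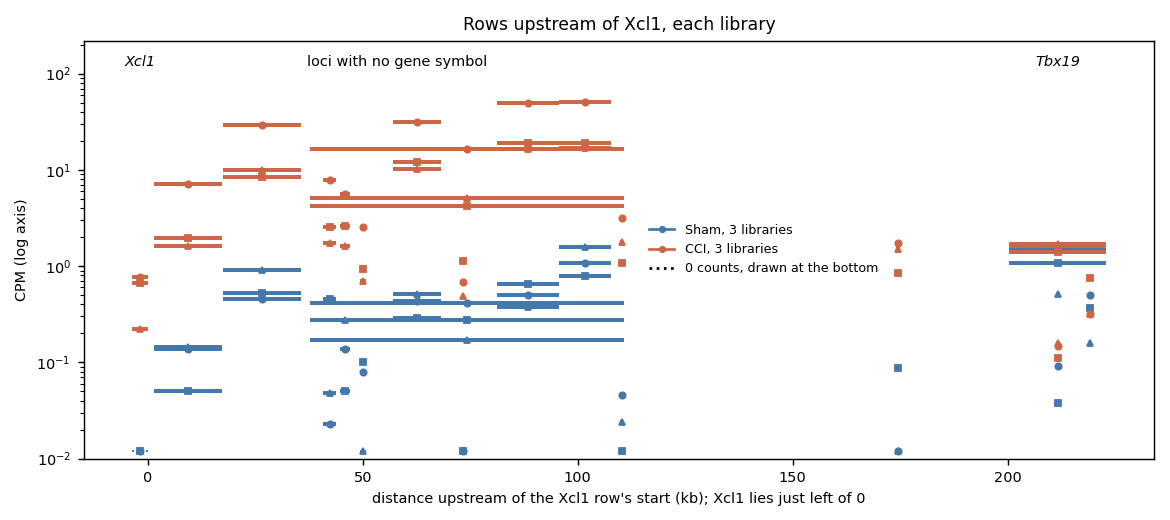
CPM (log axis) of each row upstream of Xcl1 in each library against the distance upstream in kb, with bars for the length of a row, symbols for the replicate and dotted bars or symbols at the bottom edge for 0 counts. In the 11 rows without a symbol within 109.5 kb, all CCI libraries lie above all sham libraries.

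None of the other receptors was called. Ccr1, which binds several inflammatory CC ligands, had 108, 114 and 95 counts in the CCI libraries and 110, 39 and 129 in the sham libraries. Ccr10, the receptor of Ccl27 and Ccl28, had 72, 91 and 124 counts against 142, 172 and 129, a log2 fold change of -0.55 (95% interval -1.25 to 0.15). CCI 3 was its highest CCI library, and without that library it was called lower (-0.82). Ccr6, the receptor of Ccl20, had 22, 6 and 4 counts against 0, 4 and 0, and Ccr9 had 8, 12 and 12 against 0, 8 and 0. These receptors lay near the count floor, and Ccr6 and Ccr9 were called higher only when sham 2, the sham library with counts, was left out. Ackr4 had 100, 90 and 108 counts against 115, 105 and 129, and Ackr2, a scavenger of inflammatory CC ligands, had 16, 14 and 44 against 10, 15 and 26. The groups overlapped for both atypical receptors. Ackr1 was not analysed here.

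**Figure D4:**
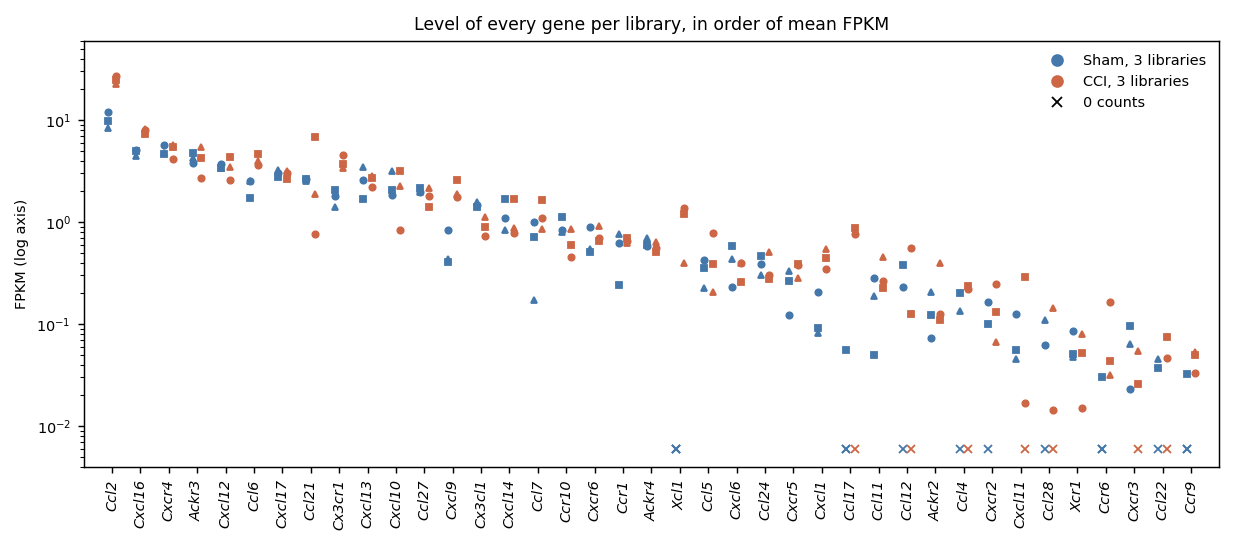
Level per length (FPKM, log axis) of each of the 39 genes in each library, in order of the mean FPKM, with crosses at the bottom for libraries with 0 counts. The means run from 17.4 for Ccl2 to 0.028 for Ccr9, and Xcl1 has crosses in the 3 sham libraries.

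Per length, the order of mean FPKM began with Ccl2 (17.4), Cxcl16 (6.35), Cxcr4 (5.08), Ackr3 (4.21), Cxcl12 (3.49) and Ccl6 (3.15). Ccl2, with 8.27 to 26.9 FPKM over the 6 libraries, did not overlap with Cxcl16, with 4.47 to 8.26 FPKM. In the other 37 of 38 neighbouring pairs of this order the ranges over the libraries overlapped, as for Cxcl16, Cxcr4 (4.11 to 5.75 FPKM), Ackr3 (2.72 to 5.47 FPKM) and Cxcl12 (2.6 to 4.32 FPKM). Just inside the count floor were Ccl22 with 34 counts in all and Ccr6 with 36, and just outside were Ccl19 with 26 and Ccl25 with 20. The 12 symbols with 1 to 29 counts were Ccl1, Ccl3, Ccl9, Ccl19, Ccl25, Ccr1l1, Ccr3, Ccr4, Ccr7, Ccr8, Cxcl3 and Cxcr1, and Ccl20, Ccl26 and Cxcl2 had no count. Some partners of a pair were far apart in counts, with Ccr7, the receptor of Ccl21, at 12 counts and Ccl20, the ligand of Ccr6, at 0.

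Many of these genes lie in clusters. With gaps under 200 kb, 35 of the 54 symbols fell into 10 clusters, and 24 of the 39 genes lay in them. In no cluster was more than 1 gene called. The clusters that hold Ccl24, Cx3cr1 and Cxcr2 had only 1 gene tested each, so more than 1 call was not possible there. Elsewhere several uncalled neighbours were sparse, such as Ccl12 with 81 counts in all, Ccl4 with 47 and Ccl22 with 34. Ccl7, beside Ccl2, had an interval from -0.52 to 2.38. A missing call therefore does not show that a neighbour was unchanged. In the cluster of Ccl2, Ccl7, Ccl11, Ccl12 and Ccl1 on chromosome 10 (69412017 to 69537882), Ccl2 was called of 4 genes tested, and in that of Ccl5, Ccl9, Ccl6, Ccl3 and Ccl4 (70739800 to 70886355) Ccl6 was called of 3. Cx3cl1, called lower, lay between Ccl17 and Ccl22 within 61.9 kb of chromosome 19 (10619220 to 10681145).

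Of 13 macrophage markers, 6 were called higher and none lower, beside 2.81% and 1.37% of all rows, in the comparison that called Ccl2, Ccl6, Cxcl16 and Cx3cr1 higher. The sum of the 13 was 141 to 203 CPM in the CCI libraries and 103 to 132 CPM in the sham libraries, a ratio of means of 1.54. The 6 were Csf1r, Cd68, C1qa, C1qb, C1qc and Tyrobp, while Cd163, Mrc1, Itgam, Aif1, Ptprc, Adgre1 (851, 905 and 793 counts against 775, 875 and 977) and Cd14 (150, 84 and 120 against 152, 122 and 90) were not called. Set beside that ratio, the fold changes were 2.44 for Ccl2, 2.16 for Cx3cr1, 1.79 for Ccl6 and 1.61 for Cxcl16. The part of macrophage number in these values was not tested. In the lists for B cells, erythrocytes, satellite glia, Schwann cells, endothelium and fibroblasts, no marker was called.

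**Figure D5:**
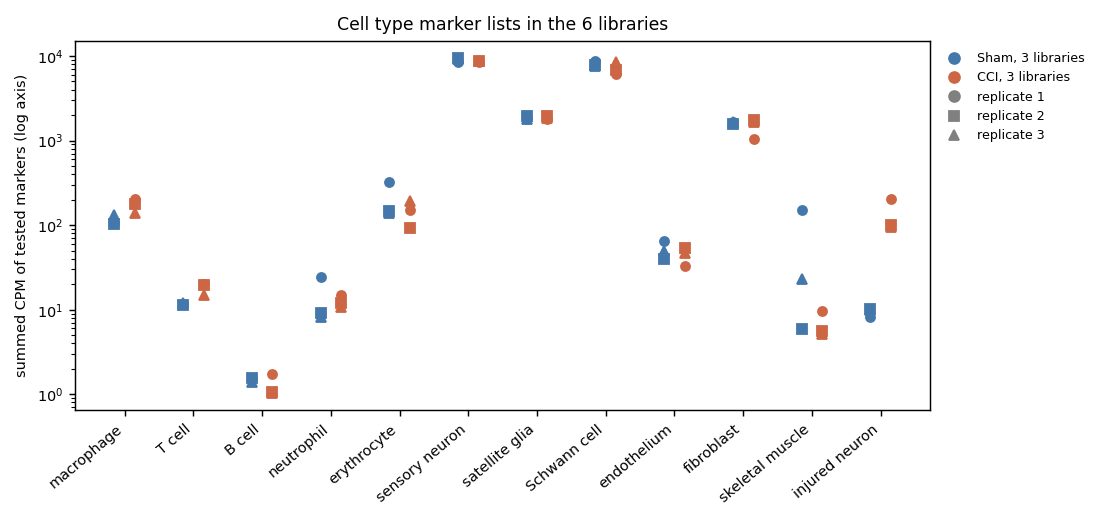
Summed CPM (log axis) of the tested markers of each cell type list in the 3 sham and 3 CCI libraries. Macrophage markers lie at 141 to 203 CPM in the CCI libraries and at 103 to 132 CPM in the sham libraries, and skeletal muscle markers reach 151 CPM in sham 1.

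Other genes of the pathway were taken from a list of 41 ligands and receptors outside the symbol families, signal transducers and enzymes that shed or trim chemokines, of which 39 were tested. In the CCI group 6 were higher (beside 2.81% of all rows) and 0 were lower, with a median log2 fold change of 0.24. Without CCI 1 the count of higher genes was 2, and without sham 2 it was 3. Ctss, cathepsin S, a protease that can release Cx3cl1 from the membrane, had 2128, 1582 and 1507 counts in the CCI libraries and 854, 822 and 940 in the sham libraries. The groups were far apart, and its log2 fold change was 1.06 ± 0.14 (SE; edgeR, adjusted p = 0.0892). The other sheddases of Cx3cl1 and Cxcl16 were not called, with log2 fold changes of -0.01 for Adam10 and 0.06 for Adam17. Ccrl2, a receptor-like protein that binds chemerin without signalling, had 96, 66 and 61 counts against 52, 26 and 26, a log2 fold change of 1.18 (edgeR, adjusted p = 0.371). The other 4 were transducers of leukocytes, Plcb2 (0.97), Pik3r5 (0.80), Vav1 (0.69) and Lyn (0.59), given as log2 fold changes. Of the rows that the authors annotated to the KEGG chemokine signaling pathway, 122 were tested after the chemokine and receptor families were left out. The related genes just described were kept in this set. In it 5 were higher (beside 2.81% of all rows) and 0 were lower, with a median log2 fold change of 0.06. These were Prkcb and the same Lyn, Pik3r5, Plcb2 and Vav1 as above.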

How the data were processed

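Total RNA of L4 to L6 DRG from 3 CCI and 3 sham rats was sequenced by the authors. The submitters' processing notes name HISAT2 2.0 and StringTie 1.3.0, and the methods give a rat reference named only by a release number. Reads were assembled into loci, so a row can join genes. The deposited table holds whole-number counts per row, without normalization, and FPKM values from the authors. The FPKM values are near the count divided by the library total and a row length. They do not equal it, as the implied length differed between libraries for sparse rows such as Ccl17. A count of 0 is listed by the authors at a small constant FPKM.

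Samples were grouped by surgery as labelled. Where a symbol had several rows, a protein-coding row and then the largest count sum was taken. The 30764 rows with a count sum of at least 30 were fitted with edgeR 4.0.16 (TMM factors, glmQLFit, glmQLFTest, R 4.3.3), and p-values were adjusted by Benjamini-Hochberg over all of them. A call needed an unadjusted p below 0.05 together with a log2 fold change no smaller than 0.58 either way. SE values are the log2 fold change divided by the square root of F, and 95% intervals use 6.55 degrees of freedom. CPM values use TMM-scaled library sizes. The scripts were tested on simulated data. Alternatives were DESeq2 size factors, DESeq2 1.42.0, edgeR's exact test, no filter, a filter at a mean FPKM of 0.5, limma 3.58.1 on log2(FPKM + 0.1) and log2(FPKM + 1), a replicate block and leaving out each library. Genes named are those called, the 3 with the largest mean FPKM of the rest in each role, partners in ligand-receptor pairs, and called genes of the related list, with others named for their counts or position. A gene of these families is not reported here and is left out of the counts of genes. The genes and lists were chosen with earlier results of these data known. The chi-square between replicate libraries was 53.9 to 78.6 times its degrees of freedom, so none was counted as a duplicate. Limits and intervals from counts cover counting error only. The labels give no sequencing batch or date. The small RNA sequencing was not used here.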

Additional observations from a re-analysis of the deposited data

How the results depend on the processing

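No called gene changed direction. Over the 14 alternative settings, 106 of 110 values of the 8 called genes kept the call and 4 lost it, and uncalled genes gained a call 5 times. The lost calls were those of Cxcl1 and Cx3cl1, given with their results, and the gained calls were Ccl17 with DESeq2 (4.38) and without CCI 3 (4.76), Ccr10 without CCI 3, and Ccr6 and Ccr9 without sham 2.

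At an adjusted p under 0.05, 6 of the 39 genes passed with DESeq2 and 5 with edgeR's exact test, Xcl1 included in both, against 0 with the quasi-likelihood test. Limma on log2(FPKM + 1) called 0 genes lower, and leaving out each library gave 0 (without CCI 1) to 2 (without CCI 3). Of the related genes, 3 were higher when a mean FPKM of at least 0.5 was required, 1 with limma on log2(FPKM + 1) and 2 (without CCI 1) to 6 when each library was left out, with 3 without sham 2, and 0 to 1 were lower, with 1 without CCI 2. Over all rows, 423 were called higher and 168 lower by limma on log2(FPKM + 1), against 865 and 422, and 799 rows with DESeq2, 283 with the exact test and 5 to 58 without 1 library passed the adjusted threshold, against 24. The filter on FPKM removed 19 of the 39 genes, Xcl1 and Cxcl1 among them, and the 20 left had a median log2 fold change of -0.02 under it, against -0.01 for the same genes without it. The causes of these differences were not tested, beyond the fewer genes tested under that filter.

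The replicate numbers were taken only to name samples. Deviations of same-numbered libraries from their group means correlated at -0.004, -0.014 and -0.041 over 30764 rows, and no library correlated best with its own number. Deviations from the mean of so few libraries cannot show whether same-numbered libraries shared a batch. With the replicate block, 7 of the 39 genes were higher, 1 was lower and 0 passed the adjusted threshold, which 0 of all rows did.

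Genes near 3 counts per library, such as Ccr6, Ccr9 and Cxcr3, carry wide intervals, for Ccr6 from -0.63 to 6.44 on the log2 scale. Joined or overlapping rows limit Cxcl16 and Cxcl17.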

Other observations

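Several transducers of the related list that were not called are named here after their values were seen. In 16 of the 39 related genes tested every CCI library lay above every sham library, beside 8.55% of all rows. Arrb1, an arrestin that uncouples receptors, had 45488, 37471 and 33677 counts in the CCI libraries and 32678, 32604 and 31023 in the sham libraries, a log2 fold change of 0.34 ± 0.10 (SE; edgeR, adjusted p = 0.327). By log2 fold change, Jak2 (0.40), Grk6 (0.25) and Gng2 (0.20) were also above the sham libraries in all 3 CCI libraries. Elmo1, an adaptor for Rac activation and cell movement, had 7821, 8762 and 8113 counts against 11003, 9239 and 9804, a log2 fold change of -0.21 ± 0.07 (SE; edgeR, adjusted p = 0.361). Arrb2 lay below the sham libraries as well, at -0.16 on the log2 scale.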
